A study of Mus musculus with 15 samples.

Results

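Senescence and tubular injury genes, 9 in all, were followed in the kidneys of 15 male C57BL/6 mice, 5 per age, aged 3, 12 or 24 months. They are the cyclin-dependent kinase inhibitors Cdkn1a, Cdkn2a, Cdkn2b and Cdkn2c, and the injury markers Lcn2, Havcr1, Vcam1, Clu and Spp1. The set was named by gene symbol, with earlier results of these data known. It makes up 9 of the 33058 genes and 45 of the 129029 transcripts listed for these kidneys. The value of a gene is the sum of the FPKM of its transcripts, where FPKM counts the sequenced fragments of a transcript relative to its length and to all mapped fragments of the library. None of the 9 genes passed the test for a difference between ages. Within an age, 12-month-old mice 17 and 18 held the 2 highest levels of Lcn2, Havcr1, Vcam1 and Clu, a pair singled out after the values were seen.

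The study asked how RNA levels in the kidney differ between young and old mice, here those of 3 and of 24 months, and the labels add a 12-month-old group. By staining, it also reported more fibrosis and a larger area positive for senescence-associated beta-galactosidase in old kidneys. RNA levels do not measure that staining. No engineered allele is named for any group, and no agent apart from the urethane anaesthesia given before tissue collection. The methods do not describe the 12-month-old mice. The files hold 1 column of values for each mouse. The study's methods speak of pooled kidney RNA, the labels do not, and values are read here as 1 mouse each. The labels give the strain as C57BL/6 and the methods as C57BL/6J. Tissue of the 3- and 24-month-old groups was collected within 1 day, so age and day were not mixed there, whereas no day is given for the 12-month-old mice. Mice are named by the numbers of their labels, 5 to 9 at 3 months, 17 to 21 at 12 months and 31 to 35 at 24 months, with no number used in more than 1 group.

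Aligned sequence per library was 5.03 to 6.13 Gb at 3 months, 5.84 to 8.03 Gb at 12 months and 6.07 to 7.33 Gb at 24 months, so the youngest libraries were on the whole the shallowest. The libraries carried the marks of kidney. The summed FPKM of 6 proximal tubule markers was 1470 to 1997 per mouse, and that of 3 markers of the thick ascending limb and distal tubule was 1013 to 1336. Markers of other cells were present at lower levels, with sums of 17.5 to 53.9 FPKM for 5 macrophage markers and of 0 to 2.76 FPKM for 4 neutrophil markers. In such bulk tissue, fewer cells of a type and less RNA per cell cannot be told apart.

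Senescent cells have left the cell cycle for good and stay metabolically active. Their arrest is held by 2 routes: p53 induces Cdkn1a, whose product p21 inhibits cyclin-dependent kinase complexes, and the INK4 inhibitors encoded by Cdkn2a, Cdkn2b and Cdkn2c block CDK4 and CDK6, which keeps the RB protein active. Injured tubule cells in turn switch on a well-known set of genes. Lcn2 encodes neutrophil gelatinase-associated lipocalin and Havcr1 kidney injury molecule-1, both used as urinary markers of acute injury, Vcam1 an adhesion molecule that binds leukocyte integrins, Clu the secreted chaperone clusterin, and Spp1 the matrix protein osteopontin.

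The 9 genes covered a wide span of levels. By the median over 15 mice their order was Spp1 (167 FPKM), Clu (79.2), Lcn2 (6.81), Cdkn1a (6.14), Vcam1 (5.06), Cdkn2c (1.73), Havcr1 (1.04), Cdkn2b (0.595) and Cdkn2a (listed at 0). The ranges of neighbours in this order overlapped, except that the lowest Clu level (61.6 FPKM) was above the highest Lcn2 level (25.9 FPKM). Spp1 had a higher median than 99.6% of all listed genes, Clu than 98.9% and Cdkn1a than 80.6%. The injury markers osteopontin and clusterin were thus among the abundant RNAs of these kidneys at every age, also in the young mice.

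**Figure D1:**
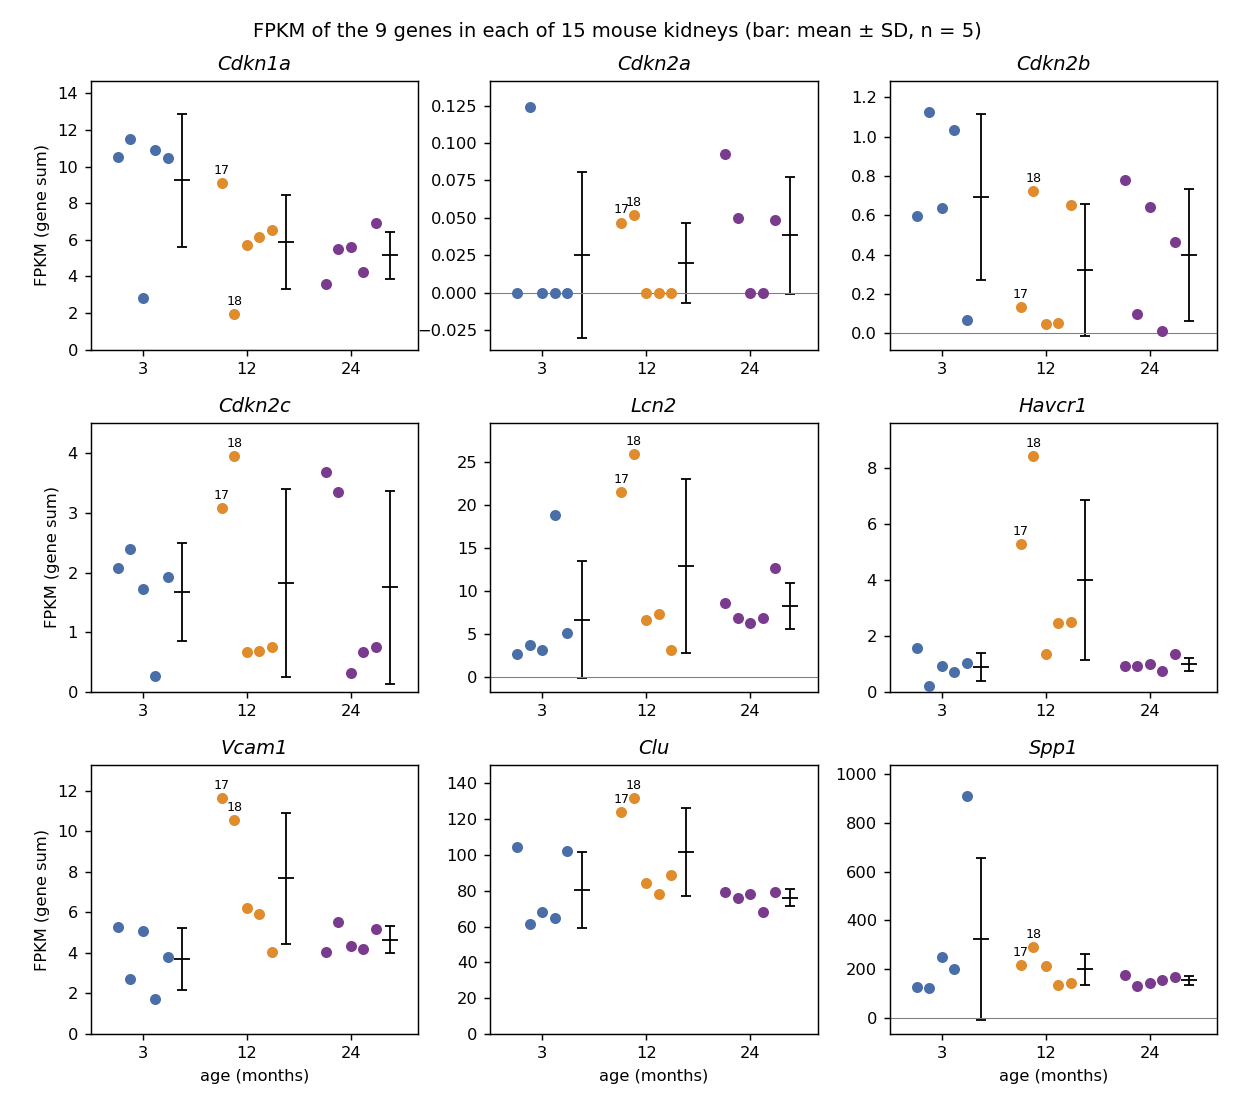
FPKM of each of the 9 genes in each mouse on linear axes, by age in months (3 months blue, 12 months orange, 24 months purple), with points for mice in the order of their numbers and black bars for the mean ± SD of 5 mice. Mice 17 and 18 are numbered, and they stand above all other mice for Lcn2, Havcr1, Vcam1 and Clu, while a 3-month-old mouse stands apart for Spp1 (909 FPKM).

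Cdkn1a, the p53 target that encodes p21, lies on chromosome 17 (GRCm38, plus strand, 29090979 to 29100739, as spanned by its 4 listed transcripts). It was highest in young mice. Its FPKM was 10.5, 11.5, 2.82, 10.9 and 10.5 in 3-month-old mice 5 to 9, 9.10, 1.96, 5.71, 6.14 and 6.55 in 12-month-old mice 17 to 21, and 3.58, 5.47, 5.63, 4.27 and 6.89 in 24-month-old mice 31 to 35. All young mice but mouse 7 were above every older mouse, and mouse 7 was below every 24-month-old mouse, so that the ages overlapped. The mean was 9.25 ± 3.62 FPKM at 3 months, 5.89 ± 2.56 at 12 months and 5.17 ± 1.28 at 24 months (SD, n = 5 each). The difference of log2(FPKM + 1) between 24 and 3 months was -0.64 ± 0.33 (SE), with an adjusted p of 0.409 by limma. Without mouse 7 it was -0.97 with an adjusted p of 0.0445, so this call turned on 1 library.

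The difference was not spread evenly over the transcripts of Cdkn1a. The main transcript ENSMUST00000023829 carried 63.4% of the gene's FPKM on average over the mice. A short transcript, ENSMUST00000122348 (2 exons, chromosome 17, 29098207 to 29099569), had FPKM of 1.32, 0.982, 0.967, 0.836 and 0.679 in the young mice, 0.228, 0.257, 0.113, 0.543 and 0.129 at 12 months, and 0.273, 0.184, 0.072, 0.407 and 0.254 at 24 months. Every young mouse, mouse 7 included, was above every older mouse for this transcript. Its difference of log2(FPKM + 1) was -0.66 ± 0.13 (SE) for 24 against 3 months, which gave an unadjusted p of 0.000648 (limma adjusted p = 0.225 over all transcripts). Over all transcripts, the share without overlap between ages was not computed. A transcript assembled from the reads, MSTRG.15277.3, differed by -0.997 ± 0.36 (unadjusted p = 0.0205, adjusted p = 0.54). How reads were shared among overlapping transcripts was decided by the authors' assembly, and the transcripts of a gene are not independent measurements.

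Cdkn2a was barely detected. It lies on chromosome 4 (GRCm38, minus strand, 89274471 to 89294653) and encodes 2 unrelated inhibitors from separate first exons, p16Ink4a, which blocks CDK4 and CDK6, and p19Arf, which stabilises p53. The sequences at the junction of first and second exon are shown because only the first exon, in lower case, tells the transcripts apart, whereas the second exon, in capitals, is the same.

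p16Ink4a (ENSMUST00000060501): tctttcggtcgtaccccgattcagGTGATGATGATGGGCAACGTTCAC
p19Arf (ENSMUST00000107131): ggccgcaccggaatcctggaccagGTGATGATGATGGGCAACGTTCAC

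The sequences are read 5′ to 3′ from GENCODE transcripts of GRCm38, with 24 bases on each side of the junction, all coding. The first exon of p16Ink4a spans 89281986 to 89282192 (207 bases), that of p19Arf 89294334 to 89294653 (320 bases), and both join the exon at 89276645 to 89276985. The coding part of the first exon leaves 0 bases over a whole codon for p16Ink4a and 1 base for p19Arf, so the shared exon is read in different frames. Summed Cdkn2a FPKM was listed at 0 in 9 of 15 mice, 4 at 3 months, 3 at 12 months and 2 at 24 months, and reached at most 0.124, in the young mouse 6. The p19Arf transcript was above 0 in 6 mice, with at most 0.0888 FPKM, in the old mouse 31. The p16Ink4a transcript was above 0 in 4 mice, with 0.0689 FPKM in the young mouse 6 and at most 0.0129 in any older mouse. A difference between ages was not detectable at these levels (0.02 ± 0.04 (SE) on the log2(FPKM + 1) scale for 24 against 3 months, limma adjusted p = 0.829).

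Cdkn2b, which encodes the INK4 inhibitor p15, is the neighbour of Cdkn2a (chromosome 4, GRCm38, minus strand, 89306289 to 89311032, 1 transcript). It was low in all groups, with 0.0669 to 1.12 FPKM at 3 months, 0.0485 to 0.726 at 12 months and 0.0143 to 0.781 at 24 months. The age groups overlapped throughout. For 24 against 3 months the log2(FPKM + 1) difference was -0.27 ± 0.22 (SE) with a limma adjusted p of 0.646.

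Cdkn2c, which encodes the INK4 inhibitor p18, lies farther along the same chromosome (GRCm38, minus strand, 109660876 to 109667189, 2 transcripts). Its levels formed a high and a low set within the older ages. The FPKM was 2.07, 2.39, 1.73, 0.262 and 1.92 in the young mice, 3.08, 3.96, 0.661, 0.686 and 0.759 at 12 months, and 3.68, 3.35, 0.314, 0.666 and 0.748 at 24 months. Mice 17, 18, 31 and 32 thus had the 4 highest levels, whereas the other older mice were all below 0.8. The groups overlapped fully, and the log2(FPKM + 1) difference was -0.09 ± 0.43 (SE) for 24 against 3 months, with a limma adjusted p of 0.939. Both transcripts of Cdkn2c were higher in those 4 mice than in the other 6 older mice.

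Lcn2 encodes a lipocalin that binds iron-carrying siderophores and is shed by stressed tubule cells. It lies on chromosome 2 (GRCm38, minus strand, 32384633 to 32387891, 6 transcripts). FPKM was 2.70, 3.67, 3.06, 18.8 and 5.07 in the young mice, 21.5, 25.9, 6.58, 7.24 and 3.10 at 12 months, and 8.60, 6.88, 6.24, 6.81 and 12.7 at 24 months. The young mouse 8 and the 12-month-old mice 17 and 18 stood above the rest, and all 5 old mice were above 4 of the 5 young mice. The mean was 6.66 ± 6.84 FPKM at 3 months, 12.9 ± 10.1 at 12 months and 8.25 ± 2.64 at 24 months (SD, n = 5 each). For 24 against 3 months the log2(FPKM + 1) difference was 0.56 ± 0.43 (SE) with a limma adjusted p of 0.61. Without the young mouse 8 it was 0.98 with an adjusted p of 0.103. Summed FPKM of 4 neutrophil markers, cells that also make this lipocalin, did not exceed 2.76 in any mouse, and the part of neutrophils in the Lcn2 levels was not tested.

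Havcr1 encodes a membrane protein of proximal tubule cells that binds dying cells, and its RNA is scarce in healthy kidney. It lies on chromosome 11 (GRCm38, plus strand, 46735080 to 46781855, 6 transcripts). It was the member most different between ages. FPKM was 1.58, 0.187, 0.925, 0.717 and 1.04 in the young mice, 5.29, 8.43, 1.37, 2.47 and 2.49 at 12 months, and 0.904, 0.917, 0.985, 0.728 and 1.36 at 24 months. All 5 middle-aged mice were above all 5 old mice, if only just (lowest 1.366 against highest 1.361 FPKM), and 4 of them were above all young mice. The mean was 0.891 ± 0.507 FPKM at 3 months, 4.01 ± 2.87 at 12 months and 0.979 ± 0.234 at 24 months (SD, n = 5 each). On the log2(FPKM + 1) scale the difference was 1.27 ± 0.37 (SE) for 12 against 3 months (unadjusted p = 0.00677, limma adjusted p = 0.17) and -1.17 ± 0.34 for 24 against 12 months (unadjusted p = 0.00645, limma adjusted p = 0.673). Between 24 and 3 months it was 0.10 ± 0.20 with an adjusted p of 0.822. With mice 17 and 18 both left out, a step chosen after their values were seen, the 12-month-old mice differed from the young by 0.74 and the old from the 12-month-old mice by -0.64.

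The bases just before the start of the main Lcn2 and Havcr1 transcripts are shown because levels of both genes peaked in the same 2 mice. They come from RefSeq promoter windows of GRCm38.p6, which cover 7 of the 9 genes, and are given 5′ to 3′ on the strand of the gene. Capitals mark a match to the NF-kB-like pattern.

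Lcn2 (chr2:32387798-32387989, minus strand): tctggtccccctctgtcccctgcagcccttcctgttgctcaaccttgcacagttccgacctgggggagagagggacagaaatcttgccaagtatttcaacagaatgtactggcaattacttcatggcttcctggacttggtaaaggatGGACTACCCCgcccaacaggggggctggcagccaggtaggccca
Havcr1 (chr11:46750261-46750510, plus strand): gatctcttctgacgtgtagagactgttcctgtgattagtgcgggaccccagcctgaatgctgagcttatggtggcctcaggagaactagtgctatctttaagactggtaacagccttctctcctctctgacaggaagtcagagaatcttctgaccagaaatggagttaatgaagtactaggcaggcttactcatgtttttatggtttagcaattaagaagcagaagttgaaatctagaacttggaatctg

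The patterns searched, on both strands, were an NF-kB-like pattern (GGG and CC with any 5 bases between), a STAT-like pattern (TTCNNNGAA), an AP-1 pattern (TGANTCA), and TATAAA. The Lcn2 bases held 1 match, to the NF-kB-like pattern on the strand opposite the gene, from 44 to 35 bases before the transcript start. The Havcr1 bases held none of the 4 patterns. Of 32851 RefSeq windows of 250 bases, 45.8% held the NF-kB-like pattern, 7.02% the STAT-like, 6.75% the AP-1 and 12.4% the TATAAA pattern, so the match before Lcn2 is a common one and a description of these letters only.

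Vcam1, the adhesion molecule bound by the integrin of Itga4 and Itgb1, lies on chromosome 3 (GRCm38, minus strand, 116109949 to 116129692, 5 transcripts). FPKM was 5.29, 2.70, 5.06, 1.70 and 3.77 in the young mice, 11.6, 10.5, 6.21, 5.94 and 4.06 at 12 months, and 4.02, 5.54, 4.33, 4.19 and 5.18 at 24 months. All middle-aged mice but mouse 21 were above every mouse of the other ages. The log2(FPKM + 1) difference was 0.87 ± 0.31 (SE) for 12 against 3 months (unadjusted p = 0.0194, limma adjusted p = 0.248), -0.54 ± 0.24 for 24 against 12 months (unadjusted p = 0.0476, limma adjusted p = 0.774) and 0.33 ± 0.23 for 24 against 3 months (limma adjusted p = 0.559). The last of these was 0.14 without the young mouse 8. With mice 17 and 18 left out the difference of 12 from 3 months was 0.50 and that of 24 from 12 months -0.17. The main transcript ENSMUST00000029574 carried 77.5% of the gene's FPKM on average.

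Clu, the gene of clusterin, a chaperone that binds misfolded proteins outside the cell, lies on chromosome 14 (GRCm38, plus strand, 65968483 to 65981548, 9 transcripts). Its levels were the steadiest of the set. FPKM was 104, 61.6, 67.9, 64.7 and 102 in the young mice, 124, 132, 84.3, 78.4 and 88.9 at 12 months, and 79.6, 75.9, 78.0, 68.3 and 79.2 at 24 months. The old mice lay close together, with a mean of 76.2 ± 4.66 FPKM against 101 ± 24.6 at 12 months and 80.2 ± 21.3 at 3 months (SD, n = 5 each). The log2(FPKM + 1) difference was -0.38 ± 0.15 (SE) for 24 against 12 months (unadjusted p = 0.0316, limma adjusted p = 0.747) and -0.04 ± 0.16 for 24 against 3 months (limma adjusted p = 0.929). With mice 17 and 18 left out the difference of 24 from 12 months was -0.14. A single transcript, ENSMUST00000022616, carried 97.4% of the gene's FPKM on average.

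Spp1, the gene of osteopontin, a secreted ligand of integrins and of CD44, lies on chromosome 5 (GRCm38, plus strand, 104433987 to 104441279, 10 transcripts) and was the most abundant member. FPKM was 128, 123, 249, 201 and 909 in the young mice, 218, 292, 214, 134 and 145 at 12 months, and 177, 131, 144, 157 and 167 at 24 months. The young mouse 9 stood apart, and the other 14 mice were all between 123 and 292. The mean was 322 ± 332 FPKM at 3 months and 155 ± 18.4 at 24 months (SD, n = 5 each), a log2(FPKM + 1) difference of -0.61 ± 0.49 (SE) with a limma adjusted p of 0.628. Without mouse 9 this difference was -0.12, and that of 12 from 3 months went from -0.29 to 0.20. Mouse 9 also had the highest levels of the 3 fibrinogen genes, liver-type genes that injured tubule cells are known to express, with 91.0 FPKM for Fga, 8.27 for Fgb and 120 for Fgg. An annotated gene, Gm42793, overlaps Spp1 on the same strand, so reads could be shared between them.

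The same 2 mice led 4 of the 5 injury members. Mice 17 and 18 held ranks 1 and 2 of 15 for Lcn2, Havcr1, Vcam1 and Clu, and ranks 4 and 2 for Spp1. Of the 13446 genes with a mean of at least 1 FPKM, 186 (1.38%) had these mice as their 2 highest. No cyclin-dependent kinase inhibitor of the set did, and for Cdkn1a mouse 18 was the lowest of all mice (1.96 FPKM). At that level, most genes of the other lists did not share the pattern, but except for secreted factors its share was above that of all genes. It was found in 3 of 22 other injury genes (13.6%), namely Vim, Dcdc2a and Cp. In the p53 and RB routes 2 of 30 genes had it (6.67%), Ccng1 and Sesn1. So did 1 of 7 partners (14.3%), Cd44, a receptor of osteopontin, and 0 of 14 secreted factors. This pair of mice was singled out after the values were seen, from the members themselves. The 1.38% holds for this chosen pair and does not measure how often chance gives such a pair.

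Markers of other cells moved with these mice in part. The summed FPKM of 5 macrophage markers was 49.7 in mouse 17 and 53.9 in mouse 18, against 17.5 to 48.3 in the other mice. For 4 fibroblast markers it was 64.4 and 54.2 against 15.1 to 49.4. Of these 4, the collagen genes Col1a1 and Col3a1 had the same 2 highest mice, and Dcn and Pdgfrb did not. Of 4 macrophage markers with a mean of at least 1 FPKM, 1 did (Adgre1). Other sums did not lead in both mice, with ranks of 3 and 15 for podocyte, 7 and 14 for endothelial and 1 and 11 for B-lineage markers. Summed proximal tubule markers were 1649 and 1806 FPKM in mice 17 and 18, inside the range of the other mice. Their libraries held 7.21 and 6.57 Gb of aligned sequence, also inside the range of their age. The part of macrophage and fibroblast RNA in the levels of the injury genes was not tested.

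**Figure D2:**
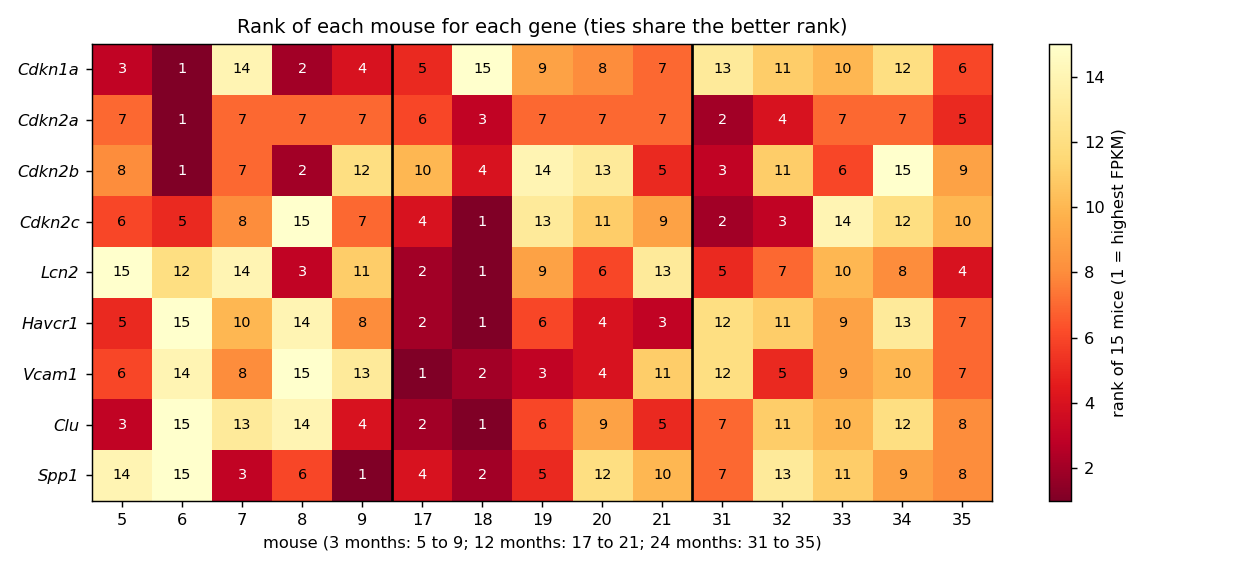
Rank of each mouse for each of the 9 genes by FPKM, from 1 (highest, dark) to 15 (lowest, light), with black lines between the ages. Mice 17 and 18 hold ranks 1 and 2 for Lcn2, Havcr1, Vcam1 and Clu, and the young mice hold ranks 1 to 4 and 14 for Cdkn1a.

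Across pairs of members, levels of Havcr1, Vcam1 and Clu went up and down together over the 15 mice. Pearson's r of log2(FPKM + 1) was 0.852 for Havcr1 with Clu (Spearman's rho 0.846), 0.820 for Havcr1 with Vcam1 (rho 0.729) and 0.757 for Vcam1 with Clu (rho 0.543). Without mice 17 and 18 these r were 0.611, 0.554 and 0.442. The r of Lcn2 with Havcr1 was 0.549 over 15 mice and -0.134 without the pair. Cdkn1a ran weakly opposite to Vcam1 (r = -0.422, rho -0.357) and Havcr1 (r = -0.335, rho -0.118). These values describe 21 pairs in the same libraries and carry no test.

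Each member of at least 1 FPKM was also set beside all 13446 genes of that level. Vcam1 was most like Mrc1, the macrophage mannose receptor (r = 0.929 over 15 mice, rho 0.686, and r = 0.867 without the 2 mice farthest from the Vcam1 median), followed by Lcp2 (r = 0.867) and Atrnl1 (r = 0.841). Havcr1 was most like the matrix protease gene Mmp2 (r = 0.878, rho 0.804, and 0.734 without mice 17 and 18), the immunoglobulin segment Igkv6-14 (r = 0.868) and Clu. After Havcr1, Clu was most like Pparg (r = 0.850) and the cadherin gene Fat1 (r = 0.835, rho 0.904).

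Spp1 was most like 2 fibrinogen genes, Fgg (r = 0.899, rho 0.707) and Fgb (r = 0.884, rho 0.521), and Gm28635 (r = 0.857, rho 0.429). Without mice 9 and 18 these r were 0.752, 0.477 and 0.493, so the likeness to Fgb and Gm28635 rested in large part on those mice. Cdkn1a was most like Acsl1, which activates fatty acids (r = 0.865, rho 0.836, and 0.778 without mice 7 and 18), Fundc1 (r = 0.798) and Ticam1 (r = 0.794). Lcn2 was most like Sbf2 (r = 0.833), Zfp608 (r = 0.824) and Col12a1 (r = 0.804), and Cdkn2c like Tmem256 (r = 0.876, rho 0.918), Apoa1bp (r = 0.751) and Fcgr3 (r = 0.736). Shared depth and tissue make-up enter all of these values. The genes named were picked as the 3 highest r of 13446 genes over 15 mice, which favours high r. How high r would run among unrelated genes was not tested.

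Across the whole set, 0 of 9 members passed an adjusted p of 0.05 in any of the 3 comparisons of ages by limma. For 24 against 3 months, 0 members passed an unadjusted p of 0.05 and 0 were free of overlap between the ages. Over all 31755 genes, 1.22% passed the adjusted threshold, 14.9% the unadjusted one, 0.523% an unadjusted p under 0.05 together with a log2 difference beyond 1 in either direction, and 4.73% did not overlap. Of the 9 log2 differences 4 were above 0, and their median was -0.04, beside 0.02 over all genes. The adjusted p of members ranged from 0.409 to 0.939. The 95% interval of the difference ran from -0.41 to 1.53 for Lcn2 and from -1.04 to 0.87 for Cdkn2c, and was narrower for Clu (-0.40 to 0.33).

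For 12 against 3 months, Havcr1 and Vcam1 passed an unadjusted p of 0.05, 2 of 9 members beside 14.3% of all genes. Havcr1 also had a log2 difference above 1, 1 of 9 members beside 0.499% of genes. No member was free of overlap, where 4.11% of genes were, and 0.250% of 31637 genes passed the adjusted threshold. For 24 against 12 months, Havcr1, Vcam1 and Clu passed an unadjusted p of 0.05, 3 of 9 members beside 6.43% of genes, and Havcr1 did not overlap between the ages, which held for 1.07% of genes. Havcr1 was also the member with an unadjusted p under 0.05 and a log2 difference beyond 1 there, beside 0.170% of genes, while 0.00310% of 32282 genes passed the adjusted threshold. The comparisons share their mice, since each 12-month-old mouse enters both of those with that age, and the values of the members in them are not independent.

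**Figure D3:**
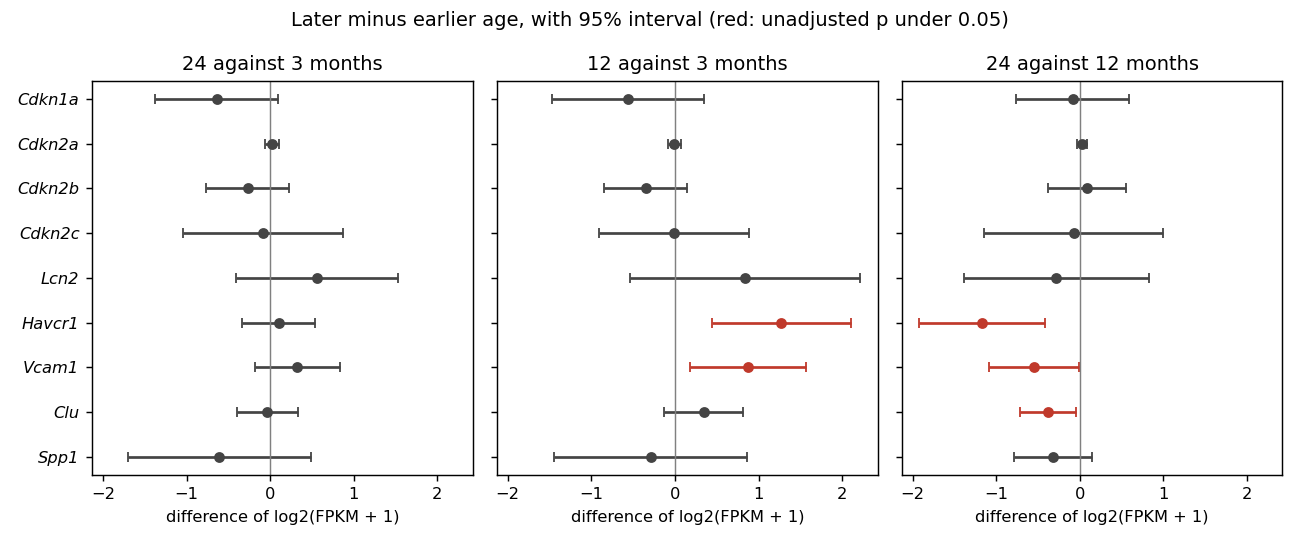
Difference of log2(FPKM + 1) of the 9 genes between ages, later minus earlier, for 24 against 3, 12 against 3 and 24 against 12 months, with points for the limma estimate and bars for its 95% interval (n = 5 mice per age). Red marks an unadjusted p under 0.05, which Havcr1 and Vcam1 reached for 12 against 3 months and Havcr1, Vcam1 and Clu for 24 against 12 months; no adjusted p was under 0.05.

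The 45 transcripts of the 9 genes gave the same picture at the level of isoforms. None passed an adjusted p of 0.05 over all transcripts by limma, where 0.0192% did for 24 against 3 months, 0.00481% for 12 against 3 and 0.00559% for 24 against 12. At an unadjusted p of 0.05, 3 of 44 tested passed for 24 against 3 months (7.90% of all transcripts), 4 of 45 for 12 against 3 (7.46%) and 4 of 44 for 24 against 12 (4.47%). The main Havcr1 transcript ENSMUST00000109223 (chromosome 11, 46750511 to 46779576, 8 exons) followed the gene's higher levels at 12 months. Its FPKM was 0.713, 0.187, 0.171, 0 and 0.191 in the young mice, 4.71, 5.31, 0.646, 1.81 and 1.32 at 12 months, and 0.660, 0.615, 0.134, 0.464 and 1.33 at 24 months. The difference was 1.42 ± 0.37 (SE) for 12 against 3 months (unadjusted p = 0.00335, limma adjusted p = 0.439). In all young mice but mouse 6, most of the Havcr1 FPKM was assigned to other transcripts, among them the assembled MSTRG.5611.4.

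A minor transcript of each of the abundant genes Spp1 and Clu had ranges at 24 and 12 months that did not overlap. The share of all transcripts for which this held was not computed. Spp1 ENSMUST00000132457 was at 0.314 to 1.54 FPKM at 12 months and at 0 to 0.135 at 24 months (log2(FPKM + 1) difference -0.73 ± 0.18 (SE), unadjusted p = 0.00202, limma adjusted p = 0.838). Clu ENSMUST00000138665, annotated as a target of nonsense-mediated decay, was at 0.436 to 0.766 and 0.0488 to 0.318 FPKM (-0.43 ± 0.12, unadjusted p = 0.0057, limma adjusted p = 0.838). They made up 0.287% and 0.417% of the FPKM of their genes on average. The split between transcripts could also differ within an age. In the old mouse 32 the main Lcn2 transcript ENSMUST00000050785 was at 0.206 FPKM and the assembled MSTRG.19232.1 at 6.20, whereas in the old mouse 34 they were at 6.49 and 0.

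**Figure D4:**
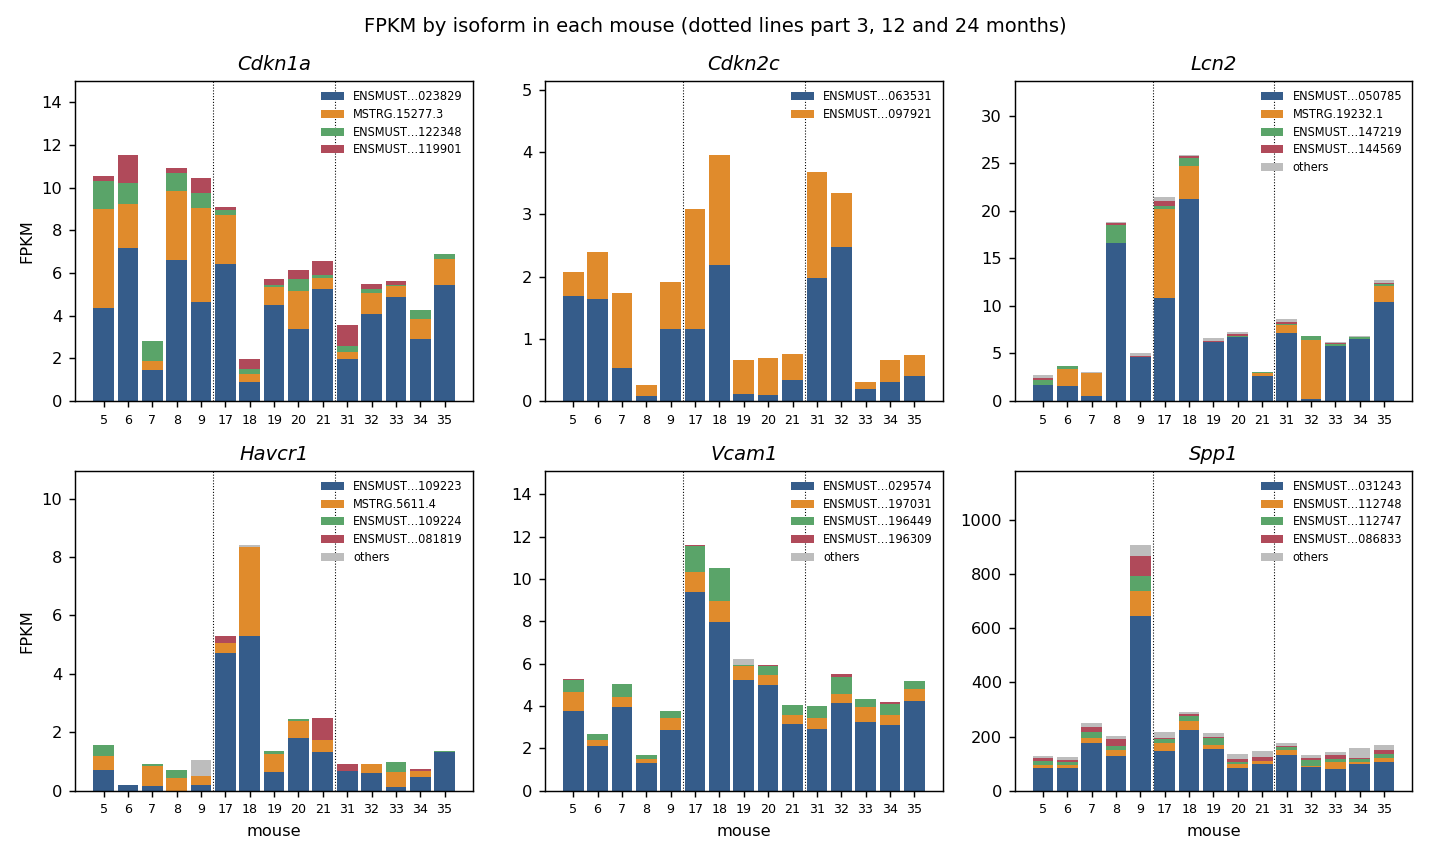
FPKM of the 4 most abundant transcripts and of the others together (grey) for 6 of the 9 genes, stacked for each mouse in the order 5 to 9, 17 to 21 and 31 to 35, with dotted lines between the ages and transcript names shortened at the dots. Mice 17 and 18 have the most of the dark blue main transcript of Havcr1 and Vcam1. For Lcn2 the main transcript is at 10.8 FPKM in mouse 17, below 16.6 in the young mouse 8, and the assembled MSTRG.19232.1 adds 9.38.

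The other genes of both routes were read from lists chosen by function. Of 34 genes of the p53 and RB routes, 2 rose and 0 fell between 3 and 24 months at an adjusted p of 0.05 by limma, where 1.0% of all genes rose and 0.211% fell. Eda2r, a p53-induced receptor of ectodysplasin A2, was at 0.321, 0.393, 0.273, 0.220 and 0.327 FPKM in the young mice, 1.04, 1.001, 0.548, 0.653 and 0.974 at 12 months, and 0.929, 1.23, 1.23, 0.946 and 1.46 at 24 months. Its values at 12 and at 24 months did not overlap those of the young mice. The log2(FPKM + 1) difference for 24 against 3 months was 0.72 ± 0.09 (SE) with a limma adjusted p of 0.0146.

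Ccnd1, the gene of cyclin D1, the partner of CDK4 and CDK6, was at 29.7, 23.7, 39.2, 33.8 and 41.8 FPKM in the young mice, 53.8, 71.6, 64.0, 74.4 and 75.0 at 12 months, and 72.6, 94.9, 63.9, 53.1 and 81.9 at 24 months. All older mice were above all young mice. It rose by 1.10 ± 0.19 (SE) on the log2 scale between 3 and 24 months (limma adjusted p = 0.0327) and by 1.01 ± 0.16 between 3 and 12 months (limma adjusted p = 0.0495), the latter losing its call when any single mouse was left out. The call for 24 months was kept without mouse 32 or mouse 34 and lost without any other single mouse, with adjusted p of 0.0354 to 0.0714 over those fits. Next in this list by p was Rbl1, which encodes an RB-related pocket protein, with a difference of 0.44 ± 0.13 (unadjusted p = 0.00655, limma adjusted p = 0.14). At an unadjusted p of 0.05, 9 genes of the list were higher and 3 lower in old mice, beside 11.4% and 3.47% of all genes. The list's median difference was 0.17, beside 0.02 for all genes, many of them at low levels where the pseudocount of 1 understates differences. Trp53 itself, the gene of p53, differed by 0.30 ± 0.12 (limma adjusted p = 0.28).

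Of 28 genes of the secreted factors that senescent cells are known to release, 0 rose or fell between 3 and 24 months at an adjusted p of 0.05 by limma. Over all genes, 1.0% rose and 0.211% fell at that threshold. At an unadjusted p of 0.05, 6 of the list were higher and 3 lower, beside 11.4% and 3.47% of all genes. The list's median difference was 0.19, beside 0.02 for all genes, again with the many low ones included. Those with the smallest p were Igfbp4, an insulin-like growth factor binding protein, with 158.5 ± 18.2 FPKM at 24 months against 106 ± 15.7 at 3 months (limma adjusted p = 0.0675), Cxcl1, a neutrophil-attracting chemokine, and Ccl7, a monocyte-attracting chemokine. Cxcl1 was at 8.70, 1.13, 8.58, 5.63 and 13.0 FPKM in the young mice and at 0.548, 1.34, 0.921, 0.668 and 0.610 in the old mice. Its log2(FPKM + 1) difference was -1.99 ± 0.44 (SE), with a limma adjusted p of 0.0676, and the ranges overlapped through the young mouse 6. Ccl7 differed by 0.43 ± 0.13 (limma adjusted p = 0.147).

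Among 25 other genes of tubular injury, 0 rose and 1 fell between 3 and 24 months at an adjusted p of 0.05. Over all genes, 1.0% rose and 0.211% fell. Itgb6, which encodes the integrin subunit of the TGF-beta-activating integrin αvβ6, fell from 33.7 ± 3.98 FPKM to 21.6 ± 3.10 (SD, n = 5 each), by 0.62 on the log2 scale with a limma adjusted p of 0.0372. It was at 37.0 ± 6.40 FPKM at 12 months. For 24 against 12 months it differed by -0.74 ± 0.14 without overlap (unadjusted p = 0.000316, limma adjusted p = 0.581). In that comparison 1.07% of all genes did not overlap. With annotated transcripts alone, the Itgb6 24 against 3 months difference was -0.14 with an adjusted p of 0.872, so the call rested on transcripts assembled from the reads. It was kept without mouse 7, 31 or 32 and lost without any other single mouse (adjusted p of 0.0423 to 0.0873). Vim, the gene of the intermediate filament vimentin, differed by 0.41 ± 0.11 (limma adjusted p = 0.109), and Fga, a fibrinogen chain, by -1.71 ± 0.57 (limma adjusted p = 0.195). The list's median was -0.10, beside 0.02 for all genes, with the many low ones included.

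The 9 binding partners of the members, their receptors and integrins, held 0 calls in either direction at an adjusted p of 0.05. Cd44, a receptor of osteopontin, was at 0.681 to 1.42 FPKM in young and 1.54 to 1.95 in old mice, without overlap (difference 0.49 ± 0.12 (SE), limma adjusted p = 0.088). Itgb3, a subunit of an osteopontin-binding integrin, was at 1.03 to 1.48 FPKM in young and 0.520 to 0.927 in old mice, also without overlap (-0.35 ± 0.11, limma adjusted p = 0.168). Over all genes, 4.73% did not overlap between these ages. Timd4, whose product like that of Havcr1 binds phosphatidylserine, was at most 0.0771 FPKM. Lrp2 and Slc22a17, which encode uptake receptors of lipocalin, differed by -0.14 ± 0.17 (limma adjusted p = 0.726) and 0.01 ± 0.19 (limma adjusted p = 0.98).

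For 12 against 3 months, the p53 and RB list held 1 gene that rose, Ccnd1, and 0 that fell, beside 0.196% and 0.0537% of all genes, and the other 3 lists held 0 calls by limma. At an unadjusted p of 0.05, where 11.4% of all genes were higher and 2.90% lower at 12 months, 9 genes of the p53 and RB list were higher and 0 lower, 8 secreted factors were higher and 1 lower, 2 other injury genes were higher and 1 lower, and 2 partners were higher and 0 lower. For 24 against 12 months the 4 lists held 0 calls. At an unadjusted p of 0.05, where 3.07% of all genes were higher and 3.36% lower at 24 months, 0 p53 and RB genes were higher and 1 lower, 1 secreted factor was higher and 3 lower, 0 other injury genes were higher and 4 lower, and 0 partners passed in either direction.

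**Figure D5:**
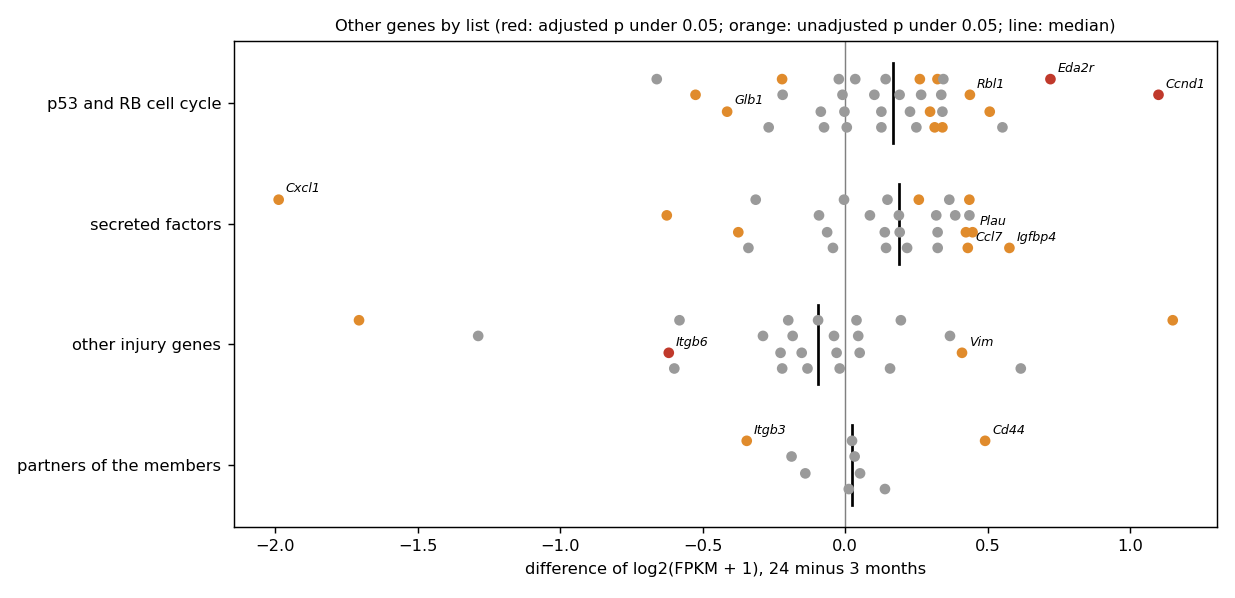
Difference of log2(FPKM + 1) between 24 and 3 months for the genes of 4 lists, with a point per gene, spread by row only for legibility, and a black line at each list's median. Red marks an adjusted p under 0.05 (Eda2r, Ccnd1 and Itgb6), orange an unadjusted p under 0.05, and genes with an unadjusted p under 0.01 are named.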

How the data were processed

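Kidney RNA-seq of 15 mice was analysed from the authors' table of transcripts. The deposited values, FPKM and coverage (a signal) of each transcript, are the authors' output of StringTie after mapping to GRCm38 with Ensembl annotation. The labels name TopHat2 and StringTie with ribosomal RNA removal, the paper Bowtie2, HISAT2 and oligo(dT) purification. Titles begin with 3M at all ages, and ages are those of the age label and the columns. The authors' estimated counts and FPKM of 11929 circular RNAs held 0 with a member as host gene. No read counts of linear transcripts were used, so no counting interval is given, and precision rests on the spread of 5 mice, taken as separate animals, although the methods mention pooled RNA. Aligned bases were the ratio of coverage to FPKM.

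Gene values were sums of FPKM over transcripts of class codes =, c, j and o. Genes or transcripts above 0 in at least 1 compared mouse were tested on log2(FPKM + 1) with limma 3.58.1 (lmFit, eBayes with trend) in R 4.3.3, each pair of ages on its own mice, with Benjamini-Hochberg adjustment over all. A call was an adjusted p under 0.05. The pseudocount of 1 understates the differences of low genes. Alternatives included exact 2-sided permutation tests on FPKM, whose smallest p was 0.00794. The test was checked on simulated data. Named were all members, their transcripts of at least 0.5 mean FPKM or past an unadjusted p of 0.05, and from each list the called genes and the 3 with the smallest p; others were named after their values were seen. The members and lists were chosen with earlier results of these data known. Python 3.11.15, numpy 2.4.6, pandas 2.3.3 and matplotlib 3.10.9 did the rest.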

Additional observations from a re-analysis of the deposited data

Results flagged for a closer look

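Of 27 groups of 5 values (9 genes at 3 ages), 4 held a mouse set apart from the others by Dixon's test. Chance alone does so in about 1 of 20 groups where values are normally distributed. Whether these FPKM were so distributed was not tested, so that rate is a rough guide only. For Cdkn2a the outcome followed from the zeros of the other 4 mice, so that rate does not apply to it. All 4 were young mice, and each was a different animal. Cdkn1a was low in the 3-month-old mouse 7 (2.82 FPKM against 10.5 to 11.5 in the other young mice). Lcn2 was high in the 3-month-old mouse 8 (18.8 FPKM against 2.70 to 5.07), and Spp1 was high in the 3-month-old mouse 9 (909 FPKM against 123 to 249). Cdkn2a was high in the 3-month-old mouse 6 (0.124 FPKM, with the other young mice listed at 0), at a level where a few reads decide the value.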

How the results depend on the processing

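By the adjusted p, the count of called members was 0 in all 3 comparisons with a pseudocount of 0.1, a mean FPKM of at least 1, annotated transcripts alone, TPM, quantile normalization, a robust prior on the variance, a joint fit of all 15 mice, and length-weighted gene values (the last chosen after seeing the data, as was leaving out mice 17 and 18, which also gave 0). Called isoforms were 0 with the pseudocount, the FPKM minimum and TPM, the alternatives run for them. Leaving out each mouse gave 0 to 1 members for 24 against 3 months (Cdkn1a, without mouse 7) and 0 otherwise. At an unadjusted p of 0.05, 2 members were called for 12 against 3 months and 3 for 24 against 12, 1 each with the log2 limit of 1, and 3, 4 and 4 isoforms in the 3 comparisons. The exact permutation test on FPKM, without adjustment over 27 tests, called 1, 2 and 2 members: Cdkn1a for 24 against 3 months (exact p = 0.0476), Havcr1 (exact p = 0.0159) and Vcam1 (exact p = 0.0397) for 12 against 3, and Havcr1 (exact p = 0.00794) and Clu (exact p = 0.0238) for 24 against 12. The permutation test was run on the members alone, so these counts have no share of all genes beside them.

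The differences that changed sign were none of them called. For 24 against 3 months these were Havcr1 (-0.0208 after quantile normalization and -0.018 with length weighting), Clu (0.0027 after quantile normalization) and Cdkn2c (0.0648 as a log2 ratio of means). For 12 against 3 months Cdkn2c was 0.13 as a ratio of means and 0.11 with length weighting. Without mice 17 and 18, 24 against 12 months gave 0.49 for Cdkn2c and 0.50 for Lcn2. Leaving out a mouse at a time, the ranges that crossed 0 were, for 24 against 3 months, Cdkn2c -0.34 to 0.13, Havcr1 -0.0538 to 0.23 and Clu -0.12 to 0.0674; for 12 against 3, Cdkn2a -0.0172 to 0.0277, Cdkn2c -0.27 to 0.13 and Spp1 -0.52 to 0.20; and for 24 against 12, Cdkn1a -0.36 to 0.0823, Cdkn2b -0.012 to 0.19, Cdkn2c -0.31 to 0.17 and Lcn2 -0.63 to 0.0454. Of the other genes, Eda2r kept its call in 10 of 10 such fits, Ccnd1 in 2 of 10 and Itgb6 in 3 of 10 for 24 against 3 months, and Itgb6 was at an adjusted p of 0.0609 after quantile normalization. Ccnd1 for 12 against 3 months kept its call in 0 of 10 and lost it under TPM, quantile normalization, annotated transcripts alone, the robust prior and without mice 17 and 18. The cause was not tested.

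No paired analysis was possible because the ages share no replicate number and each number names 1 animal. Cdkn2a levels were near 0 in all mice, and the part of depth in that was not tested.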

Other observations

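Levels of other acute-phase and injury genes, read after the values were seen, also set single mice apart. Fgg, a fibrinogen chain, was at 51.2 FPKM in the young mouse 7 and 120 in the young mouse 9, against 5.44 to 22.3 in the other 13 mice. C3, the gene of complement component 3, was highest in the young mouse 9 (40.5 FPKM), followed by the 12-month-old mice 18, 17 and 19 (33.5, 32.1 and 26.1 FPKM), and was at 4.12 to 15.6 FPKM in the remaining young mice. Glb1, which encodes the lysosomal beta-galactosidase, differed by -0.41 ± 0.12 (SE) on the log2(FPKM + 1) scale between 24 and 3 months (limma adjusted p = 0.146), and Lmnb1, the gene of lamin B1, by 0.26 ± 0.12 (limma adjusted p = 0.333). Phlda3, a p53 target, was higher at 12 than at 3 months without overlap (difference 0.88 ± 0.15 (SE), limma adjusted p = 0.0523). Over all genes, 4.11% did not overlap in that comparison.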
